A study of Mus musculus with 6 samples.

Results

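The lipoprotein lipolysis and fatty acid uptake genes studied here are 9 genes, Pparg, Cd36, Gpihbp1, Lpl, Lipg, Fabp4, Fabp5, Angptl4 and Plin2, out of 22180 genes measured on the same arrays. They were chosen by their log2 expression in YFP-positive against YFP-negative cells, the comparison described here, so their differences between the populations are given as a description, with no test. For each gene the probe with the highest mean over the 6 arrays was used, among probes with exactly 1 gene symbol, and all 9 had such a probe.

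Expression was measured in bone marrow LSK cells, which lack mature lineage markers and carry the surface proteins Sca-1 and Kit, of C57Bl6 mice at postnatal day 27. All mice carried a tamoxifen-inducible Cre recombinase driven by the promoter of Cdh5, which encodes VE-cadherin of endothelial junctions, and a YFP reporter at the Rosa26 locus. Both populations came from mice that had received tamoxifen on days 1, 2 and 3 after birth, and were collected 26 days after the first induction. The YFP-positive population (3 arrays) holds cells in which the Cre was active or that descend from such cells, and the YFP-negative population (3 arrays) holds the unmarked LSK cells. The labels do not say whether replicates came from separate or pooled mice, so every p-value rests on the spread among these arrays alone, which may be technical.

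Lipoprotein lipase, encoded by Lpl, is carried to the capillary wall and held there by the protein encoded by Gpihbp1, where it splits the triglycerides of circulating lipoproteins. The freed fatty acids are taken up with the help of CD36 and carried inside the cell by small binding proteins such as those of Fabp4 and Fabp5. Pparg encodes a nuclear receptor that binds fatty acids and, paired with a retinoid X receptor, switches on several of these genes in fat cells, macrophages and some endothelium.

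The values are log2 expression as the authors deposited them, and the median of all genes lay between 3.88 and 3.95 on the 6 arrays. Without detection calls, a level at or below this median cannot be told from background. Cdh5, the gene whose promoter drives the Cre, measured 11.63, 11.84 and 11.29 in YFP-positive arrays, against 5.40, 4.55 and 3.71 in YFP-negative arrays. Of 26 endothelial markers, 23 were higher in YFP-positive arrays by limma's test (adjusted p under 0.05) and 0 lower, and their summed linear level was 14881 to 22101 in YFP-positive cells, against 1294 to 1916 in YFP-negative cells. Of 13 LSK and progenitor markers measured, 8 were lower and 0 higher. Kit, which defines the sort gate, had means of 6.86 ± 0.27 in YFP-positive cells, against 7.76 ± 0.20 in YFP-negative cells (n = 3 arrays each, SD), and Ly6a, the gene of Sca-1, was not analysed here. YFP-positive replicate 3 stood apart, with a median of 0.09 for broad leukocyte markers relative to YFP-negative cells, against -2.08 in replicate 1 and -2.26 in replicate 2. In these mixed RNA samples, fewer cells of a type and less RNA per cell cannot be told apart. The part of endothelial cells in the results below was not tested.

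Of the 9 genes, 8 were higher in YFP-positive arrays, by 1.78 to 6.65 on the log2 scale, and Fabp5 was lower. The median difference was 5.11, beside -0.01 over all genes. The 2 sets of 3 arrays did not overlap for any of the 9, where 22.7% of all genes had no overlap. All 9 passed limma's threshold, at which 4.84% of all genes were called, 8 of them higher (2.88% of all genes) and 1 lower (1.96% of all genes). The set was chosen on this contrast, so nothing is read from these counts. The set ranged from Pparg, Cd36 and Gpihbp1, at 6.49 to 6.65, down to Plin2 at 1.78 and Fabp5 in the opposite direction.

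**Figure D1:**
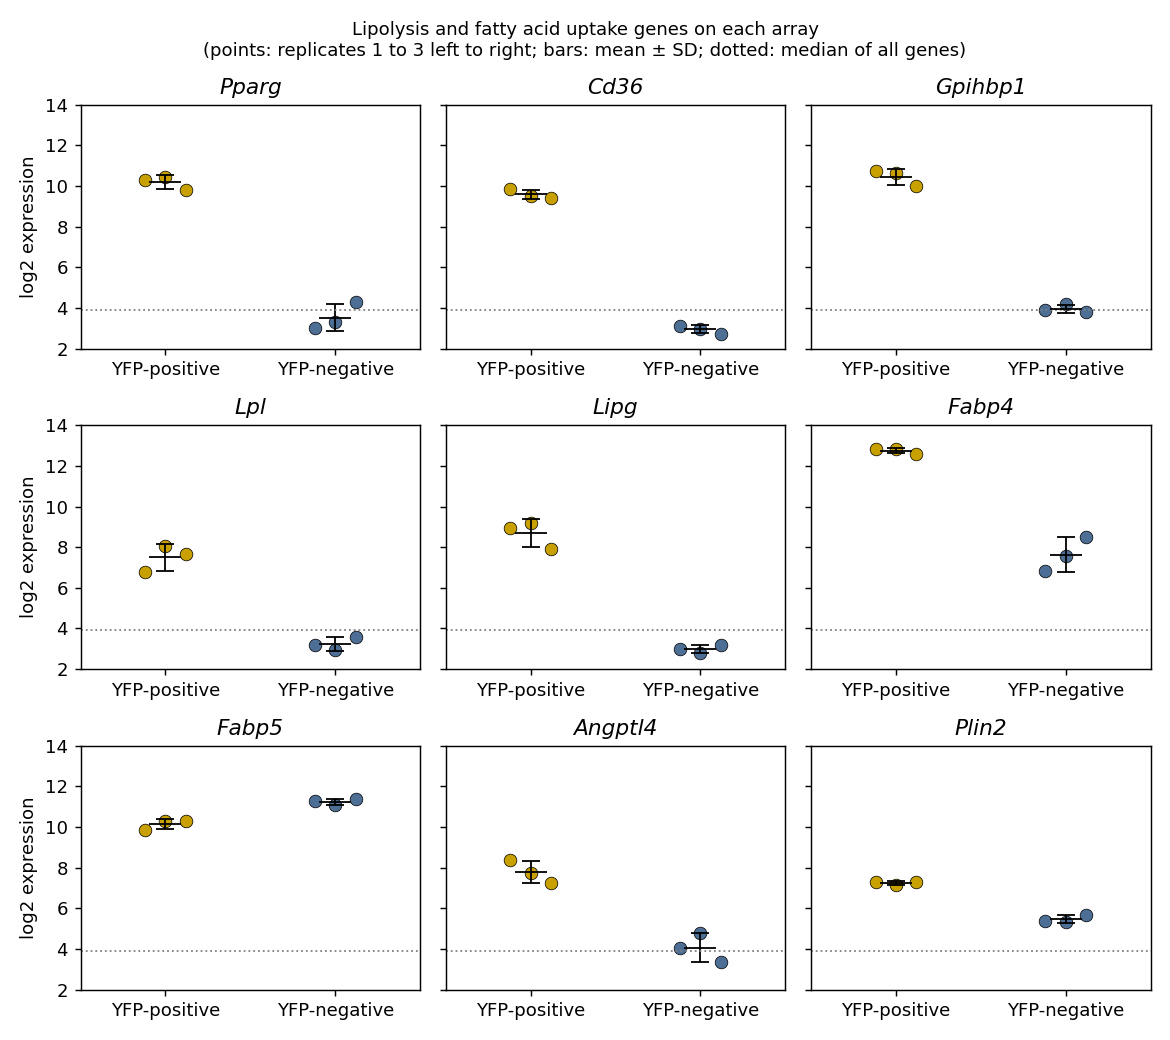
Log2 expression of the 9 genes on each array, with YFP-positive arrays on the left and YFP-negative arrays on the right of each panel. Points are replicates, bars the mean ± SD, and the dotted line the median of all genes; Cd36, Lpl and Lipg lie under that line on all YFP-negative arrays, while Fabp4, Fabp5 and Plin2 lie above it on all 6.

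Pparg measured 10.31, 10.43 and 9.80 in YFP-positive arrays, against 2.99, 3.31 and 4.27 in YFP-negative arrays. YFP-negative replicate 3 was the one above the gene median in its group, and it was still 5.52 below the lowest YFP-positive array. The difference was 6.65 ± 0.36 on the log2 scale (limma's moderated SE, n = 3 arrays each, as for every gene below), or 101-fold, and its size is limited by a YFP-negative level that 2 of 3 arrays put under the gene median.

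Cd36 encodes a scavenger receptor that takes up long-chain fatty acids and oxidised lipoproteins. It measured 9.85, 9.51 and 9.40 in YFP-positive arrays, against 3.11, 2.98 and 2.74 in YFP-negative arrays. All 3 YFP-negative values lay under the gene median, and the lowest YFP-positive array stood 6.29 above the highest YFP-negative one, the widest gap of the 9 genes. The difference was 6.64 ± 0.17.

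RefSeq promoter windows, running from 250 bases before to 50 bases after a start site, were at hand for 3 of the 9 genes, and are shown for the receptor Pparg and for Cd36 and Plin2, which are known targets of PPAR receptors in other tissues. All are of build GRCm38.p6. Capitals mark AGGTCA, the half-site that nuclear receptors such as PPARG bind, or its reverse complement TGACCT. The window of Cd36 is chr5:17835847-17836146 on the minus strand, that of Plin2 chr4:86670010-86670309 on the minus strand, and those of 2 Pparg starts chr6:115360894-115361193 and chr6:115362099-115362398 on the plus strand.
Cd36: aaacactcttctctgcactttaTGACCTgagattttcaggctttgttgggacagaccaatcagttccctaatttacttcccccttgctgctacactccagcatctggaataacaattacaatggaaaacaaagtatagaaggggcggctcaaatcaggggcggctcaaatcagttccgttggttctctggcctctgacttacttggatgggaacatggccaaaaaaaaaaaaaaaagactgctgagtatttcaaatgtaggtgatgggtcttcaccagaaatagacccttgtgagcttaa
Plin2: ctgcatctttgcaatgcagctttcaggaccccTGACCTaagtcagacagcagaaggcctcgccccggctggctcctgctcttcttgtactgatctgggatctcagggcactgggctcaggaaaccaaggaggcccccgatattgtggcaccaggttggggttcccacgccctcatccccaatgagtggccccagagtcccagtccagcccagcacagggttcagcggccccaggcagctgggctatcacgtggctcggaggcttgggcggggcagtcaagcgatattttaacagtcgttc
Pparg, first start: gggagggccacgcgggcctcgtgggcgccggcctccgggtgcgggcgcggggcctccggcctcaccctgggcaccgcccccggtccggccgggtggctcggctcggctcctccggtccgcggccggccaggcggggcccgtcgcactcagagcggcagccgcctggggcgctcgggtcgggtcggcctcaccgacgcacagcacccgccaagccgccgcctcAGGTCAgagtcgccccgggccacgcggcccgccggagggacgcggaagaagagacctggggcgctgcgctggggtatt
Pparg, second start: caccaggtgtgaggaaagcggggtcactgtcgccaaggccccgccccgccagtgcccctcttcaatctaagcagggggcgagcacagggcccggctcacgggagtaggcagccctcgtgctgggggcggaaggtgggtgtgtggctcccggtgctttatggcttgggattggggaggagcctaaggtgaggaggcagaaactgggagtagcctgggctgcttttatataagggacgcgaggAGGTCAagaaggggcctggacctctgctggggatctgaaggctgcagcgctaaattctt
The half-site was found once in 4 of the 5 windows of these genes, at -228 and -218 from the start in Cd36 and Plin2, reading against the gene, and at -28 and -9 in the first and second Pparg windows, reading with it, while the window of the third Pparg start (chr6:115421816-115422115) had none. It was present in 16.3% of all 32851 windows of the same length. The direct repeat of AGGTCA with 1 base between, the form that the PPAR and retinoid X receptor pair binds, was in 0 of the 5 windows and in 0.0396% of all windows, and its relaxed form, with AGGNCA in both places, in 0 of the 5 and 0.381% of all. A total of 18 motifs was searched on both strands. Of the elements common to promoters, the GC box GGGCGG was in 4 of the 5 windows (35.7% of all windows), the CCAAT box in 4 (37.4%), the TATA box as TATAAA in 1 (13.6%) and in its short form TATAA in 1 (24.9%). The E-box CANNTG was in 4 (72.3%), the hypoxia response core ACGTG in 1 (19.6%) and the CACCC box in 2 (57.5%). The motifs found in 0 of the 5 windows were the AP-1 site TGACTCA (5.2% of all windows), the GATA site GATAAG (7.44%), the forkhead site TGTTTAC (3.65%), the ETS factor sites ACCGGAAGT (1.1%) and CAGGAAGT (3.33%), the ETS core AGGAAG (35.4%), and the C/EBP site in the forms TTGCNNCAA (2.08%) and TTGCGCAA (0.183%). The short form of the TATA box lies within the long one, the half-site within the direct repeat and the short ETS core within the second ETS site, so these counts overlap. A match describes the letters of the window and says nothing of binding.

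The lipases and the anchor of lipoprotein lipase were all higher in YFP-positive arrays. Gpihbp1 measured 10.72, 10.64 and 9.98 in YFP-positive arrays, against 3.89, 4.17 and 3.80 in YFP-negative arrays. Only YFP-negative replicate 2 was above the gene median in its group, and YFP-positive replicate 3 was the lowest of its own. The difference was 6.49 ± 0.23 (90.1-fold).

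Lpl measured 6.78, 8.06 and 7.68 in YFP-positive arrays, against 3.16, 2.93 and 3.58 in YFP-negative arrays. The YFP-negative values were all under the gene median, and YFP-positive replicate 1 was the low array, 1.28 below replicate 2. The difference was 4.28 ± 0.36 (19.4-fold). A second Lpl probe, at 4.93, 6.88 and 7.31 in YFP-positive arrays against 3.37, 3.52 and 3.63 in YFP-negative arrays, differed by 2.87, and the mean of both probes by 3.58, so the size for Lpl depends on the probe while its direction and its low first replicate do not.

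Lipg encodes endothelial lipase, which acts mainly on the phospholipids of high-density lipoprotein. It measured 8.95, 9.19 and 7.92 in YFP-positive arrays, against 2.98, 2.79 and 3.17 in YFP-negative arrays. YFP-positive replicate 3 was the low array, 1.27 below replicate 2, and all YFP-negative values were under the gene median. The difference was 5.71 ± 0.34 (52.4-fold).

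Angptl4 encodes a secreted inhibitor of lipoprotein lipase that fatty acids and hypoxia induce through PPAR receptors and hypoxia-inducible factors. It measured 8.38, 7.73 and 7.27 in YFP-positive arrays, against 4.05, 4.80 and 3.37 in YFP-negative arrays. Both populations were above the gene median on most arrays (2 of 3 in YFP-negative cells) and did not overlap. The spread was wide in both populations, with an SD of 0.56 in YFP-positive cells, against 0.72 in YFP-negative cells (n = 3 each). The difference was 3.72 ± 0.43 (13.2-fold).

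The 2 binding proteins differed in opposite directions. Fabp4 encodes the binding protein of fat cells, macrophages and capillary endothelium. It measured 12.81, 12.83 and 12.60 in YFP-positive arrays, against 6.81, 7.58 and 8.52 in YFP-negative arrays. YFP-positive arrays lay within 0.23 of each other and near the top of the arrays' range (13.7), where loss of signal was not tested, whereas YFP-negative arrays spanned 1.71, the widest range of the 9 genes in that population. The difference was 5.11 ± 0.41 (34.6-fold), and it was 4.70 without YFP-negative replicate 1 and 5.55 without YFP-negative replicate 3.

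The YFP-negative level of Fabp4 was well above the gene median, unlike that of Cd36, Lpl or Lipg. On the same 3 arrays Cdh5 ran the other way, at 5.40, 4.55 and 3.71. For the 26 endothelial markers together the summed linear level was 1865, 1916 and 1294, which is not a steady fall. The summed linear level of 15 neutrophil markers was 5490, 8547 and 22787, and that of 18 macrophage markers 1097, 1233 and 2281. Across the whole comparison neutrophil markers had 0 of 15 past the threshold (1 at an unadjusted p under 0.05), with sums of 11714 to 27220 in YFP-positive cells, against 5490 to 22787 in YFP-negative cells. The LSK gate leaves out cells with mature lineage markers, neutrophils among them. The part of endothelial, neutrophil or macrophage transcripts in the Fabp4 level was not tested.

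Fabp5 encodes the binding protein first known from skin, which is found in many cell types. It measured 9.88, 10.32 and 10.30 in YFP-positive arrays, against 11.26, 11.08 and 11.38 in YFP-negative arrays. The highest YFP-positive array was 0.76 below the lowest YFP-negative array. The difference was -1.07 ± 0.16, or 2.10-fold lower in YFP-positive cells. Fabp5 no longer passed limma's threshold without YFP-positive replicate 2, without any 1 of the YFP-negative replicates, or with the replicate number as a block. With the unmoderated model it was lost too, as were Lpl, Fabp4 and Angptl4. The set was chosen on this contrast, so nothing is read from these losses. All 4 Fabp5 probes were lower in YFP-positive arrays, with differences of -0.66, -1.07, -1.07 and -1.64. The 2 probes at -1.07 had nearly equal values on every array, so they may not be separate measurements. Related and pseudogene copies of Fabp5 may share probe sequence, so the split between copies is uncertain.

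In the RefSeq gene order (assembly GRCm38.p6), Fabp5 and Fabp4 are members of one gene cluster on chromosome 3, in the order Fabp5, Pmp2, Fabp9, Fabp4, Fabp12, with Pag1 and Impa1 as the flanking protein-coding genes. These neighbours were chosen after the values were seen. Pmp2, the binding protein of myelin, and Fabp12 stayed under the gene median on all 6 arrays, at 2.57 to 3.46 and 3.02 to 3.24 in YFP-positive cells, against 2.67 to 2.85 and 2.89 to 3.18 in YFP-negative cells. Fabp9, the binding protein of sperm, measured 6.93, 3.33 and 5.91 in YFP-positive arrays against 3.32, 2.69 and 3.15 in YFP-negative arrays. It was high on 2 of the 3 YFP-positive arrays and did not pass limma's test (difference 2.34 ± 0.88, adjusted p = 0.249; 0.0186 without YFP-positive replicate 2). Pag1 and Impa1, at 3.76 to 4.58 and 4.02 to 5.56 in YFP-positive cells, against 3.71 to 4.17 and 3.85 to 4.32 in YFP-negative cells, overlapped between the populations. Fabp4 and Fabp5 were above the gene median on all 6 arrays. The Fabp5 values are those of its probe with the highest mean, whose place in the genome was not checked. Another Fabp5 probe, numbered between those of Pag1 and Pmp2, differed by -1.64. It measured 6.35, 5.77 and 5.73 in YFP-positive arrays, against 7.50, 7.73 and 7.55 in YFP-negative arrays.

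**Figure D2:**
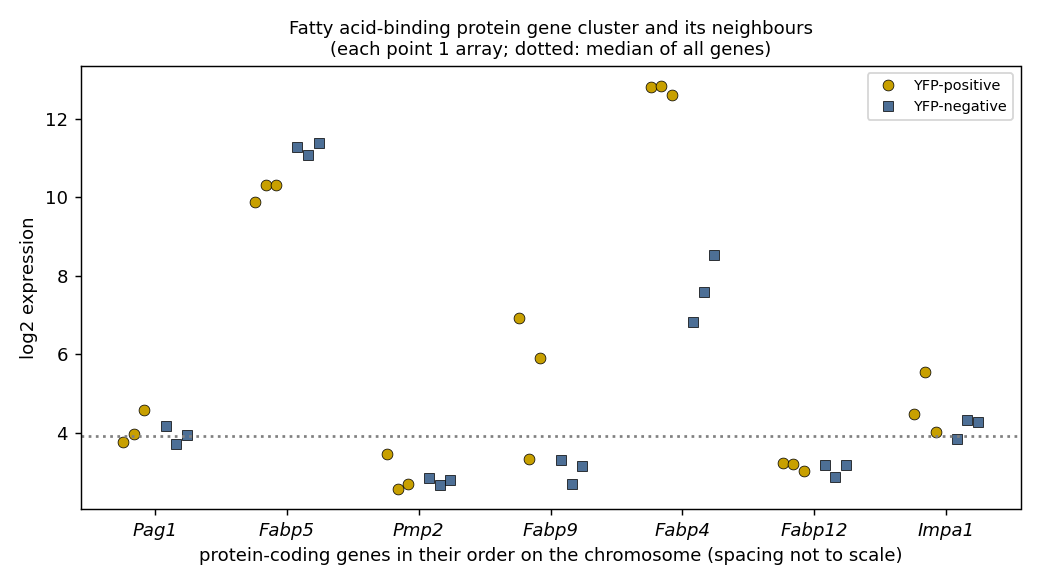
Log2 expression of the fatty acid-binding protein genes of chromosome 3 and their flanking genes, in chromosomal order, on the 3 YFP-positive arrays (circles) and the 3 YFP-negative arrays (squares). Fabp4 is at 12.6 to 12.8 in YFP-positive cells, against 6.81 to 8.52 in YFP-negative cells. Fabp5, shown by its probe with the highest mean, lies lower in YFP-positive arrays. The genes around them are near or under the median of all genes except Fabp9 on 2 YFP-positive arrays and Impa1 on 1.

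Plin2 encodes a coat protein of lipid droplets that is stable when droplets form and is a common target of PPAR receptors. It measured 7.30, 7.16 and 7.29 in YFP-positive arrays, against 5.39, 5.32 and 5.68 in YFP-negative arrays. It was above the gene median on all 6 arrays, and its SD of 0.08 in YFP-positive arrays (n = 3) was the smallest of the set. The difference was 1.78 ± 0.13 (3.44-fold).

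The YFP-positive replicates did not shift together for all 9 genes. Against the YFP-negative mean, the median of the 9 was 5.17, 5.19 and 4.94 in replicates 1, 2 and 3, beside 3.57, 3.66 and 3.28 for the endothelial markers. Replicate 3, the array with the high leukocyte markers, was the lowest YFP-positive array for 6 of the 9 (Pparg, Cd36, Gpihbp1, Lipg, Fabp4 and Angptl4), for 22 of the 26 endothelial markers and for 40.3% of all genes. Lpl and Fabp5 were lowest in replicate 1 and Plin2 in replicate 2. Without replicate 3 the differences of the 9 genes had a median of 5.18.

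**Figure D3:**
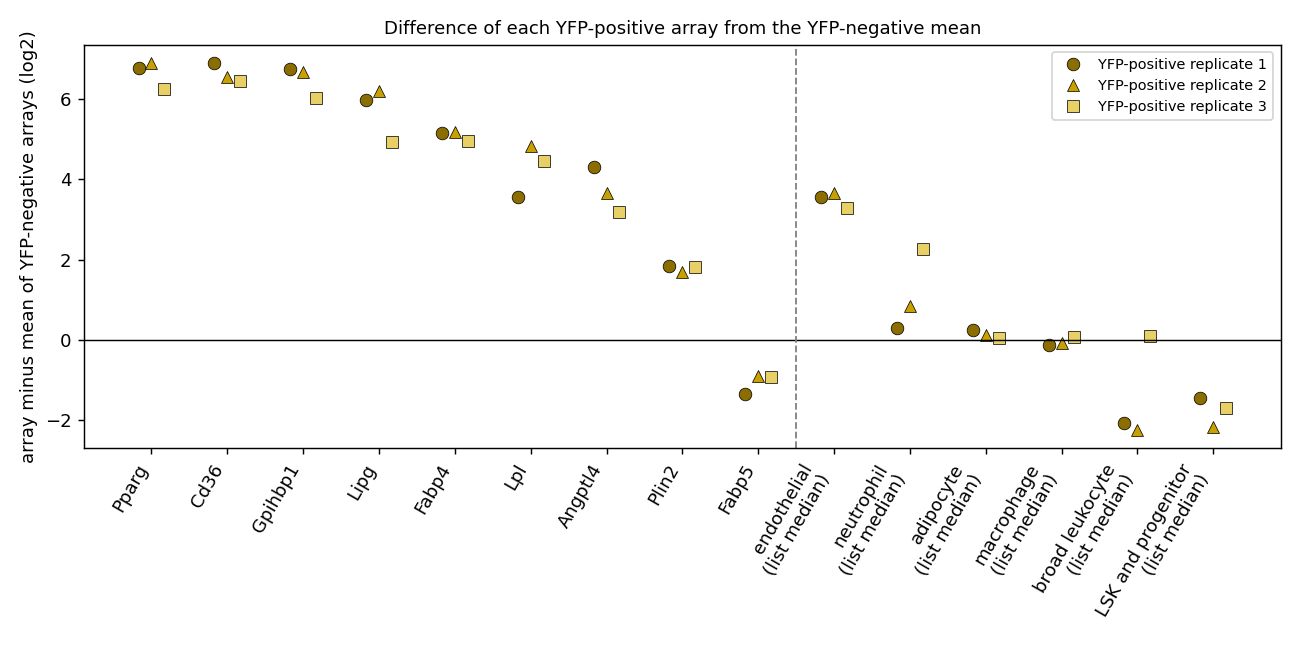
Each YFP-positive array minus the mean of the 3 YFP-negative arrays (log2), for the 9 genes, ordered by mean difference, and for the medians of 6 marker lists. The 8 higher genes lie above 0 and Fabp5 below it in all 3 replicates, while the broad leukocyte median is -2.08 and -2.26 in replicates 1 and 2 and 0.09 in replicate 3.

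Fat cells and macrophages also express Pparg, Cd36, Lpl, Fabp4 and Plin2, and their markers were read on the same arrays. By limma, 0 of 12 adipocyte markers were called (Adipoq alone had an unadjusted p under 0.05), 5 were under the gene median on all 6 arrays, and the summed linear level was 190 to 211 in YFP-positive cells, against 178 to 186 in YFP-negative cells. Adipoq, the hormone adiponectin, had means of 4.56 ± 0.31 in YFP-positive cells, against 3.64 ± 0.24 in YFP-negative cells (n = 3 arrays each, SD; limma adjusted p = 0.0658), and Plin1, the droplet coat protein of fat cells, means of 4.25 ± 0.23 in YFP-positive cells, against 4.08 ± 0.19 in YFP-negative cells. Of 18 macrophage markers, 1 was higher, Mertk (3.34-fold, limma adjusted p = 0.046), 0 were lower, and the summed level was 1248 to 3172 in YFP-positive cells, against 1097 to 2281 in YFP-negative cells. Adgre1, which encodes F4/80, was under the gene median on all 6 arrays, and Csf1r, the receptor of macrophage colony-stimulating factor, had means of 4.54 ± 0.32 in YFP-positive cells, against 4.76 ± 0.67 in YFP-negative cells (limma adjusted p = 0.841).

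The genes most like each of the 9 were found by the distance between 6-array profiles, each centred on its own mean, as a description over arrays that fall into 2 populations. The profiles were not scaled, so near genes are mostly those with a like difference between the populations. That difference is the value the 9 were chosen on. Cd36 lay nearest to Kdr, which encodes the growth factor receptor VEGFR2 (distance 0.26), Ptprb (0.40) and the hypoxia-inducible factor gene Epas1 (0.41). Gpihbp1 lay nearest to Epas1 (0.45), Adgrf5 (0.46) and Ldb2 (0.48), and Pparg to the mannose receptor gene Mrc1 (0.62), Gpm6a (0.81) and Epas1 (0.95). Mrc1, which was not on the list of macrophage markers, had means of 10.25 in YFP-positive cells, against 3.49 in YFP-negative cells. Within the set, Cd36 and Gpihbp1 were the closest of the 36 pairs (0.52).

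The nearest genes of the lipases were others. Lipg lay nearest to Il13ra2 (0.44), Mxra8 (0.53) and F8, the gene of coagulation factor VIII (0.57), and Lpl to Il13ra1 (0.74), Adam19 (0.93) and Igfbp5 (0.93). Fabp4 lay nearest to App (0.62), Slco2a1, a prostaglandin transporter (0.96), and Dab2 (1.00), Angptl4 to Tgfbr3, a co-receptor of TGF-beta (0.69), Gm4951 (0.69) and Gimap4 (0.70), and Plin2 to Colec12 (0.31), Ramp2 (0.33) and Chp2 (0.35). Fabp5 lay nearest to Txnrd1, Rars and Xrn2 (0.23 to 0.30), which are genes of thioredoxin reduction, tRNA charging and RNA decay.

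Other genes of the pathway, in lists that leave out the 9, were tested in the limma fit over all genes. In 5 lists on lipolysis, fatty acid transport, lipid droplets, PPAR partners and PPAR targets, 8 of 143 distinct genes passed (5.59%), 7 higher and 1 lower, beside 4.84% of all genes. The median difference of the 143 was 0.03, and for 96 of them (67.1%) limma gave a 95% interval within -1 to 1, beside 72.7% of all genes. Under the gene median on all 6 arrays were 6 lipolysis partners, 11 fatty acid transport genes and 8 lipid droplet genes. So were 4 PPAR partners and 11 PPAR targets, in lists that share some genes. At that level a narrow interval does not show equal expression.

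Among 27 lipolysis partners, 3 were higher, 0 lower and 24 did not pass (median 0.11). Hspg2, which encodes the heparan sulphate proteoglycan perlecan, had means of 8.45 ± 0.46 in YFP-positive cells, against 4.58 ± 0.12 in YFP-negative cells (n = 3 arrays each, SD), a 14.6-fold difference (3.87 ± 0.24, limma adjusted p = 0.000912). Apoe, an apolipoprotein that lipoprotein receptors bind, was 2.40-fold higher (limma adjusted p = 0.0155; up to 0.0643 without 1 array, the call being lost without YFP-positive replicate 1 and without YFP-negative replicates 1 and 2). Scarb1, a receptor of high-density lipoprotein, was 2.96-fold higher (limma adjusted p = 0.0473; up to 0.15 without 1 array, the call being kept only without YFP-positive replicate 1). Lmf2, a relative of the lipase maturation factor Lmf1, differed by 1.49 ± 0.35 and Sdc1, the proteoglycan syndecan-1, by -0.88 ± 0.23, and neither passed (limma adjusted p = 0.0763 and 0.102).

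Among 30 other fatty acid transport genes, 1 was higher, 0 lower and 29 did not pass (median 0.01). Cav1, the main protein of caveolae, had means of 4.34 ± 0.23 in YFP-positive cells, against 3.35 ± 0.18 in YFP-negative cells (n = 3 arrays each, SD; 1.99-fold, limma adjusted p = 0.0282). The YFP-negative mean of Cav1 lay under the gene median, which limits the size of its fold. When single arrays were left out, its call was kept only without YFP-positive replicate 3 (limma adjusted p up to 0.0964). Slc27a4, a fatty acid transport protein with acyl-CoA synthetase activity, differed by 0.72 ± 0.24 and did not pass (limma adjusted p = 0.187).

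Among 30 other lipid droplet genes, limma called 0, as did the unmoderated model, while 2 had an unadjusted p below 0.05. Bscl2, which encodes the droplet assembly protein seipin, differed by -0.75 ± 0.23 (limma adjusted p = 0.159; 0.0123 without YFP-positive replicate 3), and Lpin3, a phosphatidate phosphatase, by 0.25 ± 0.10 (limma adjusted p = 0.289). The list's differences ran from -0.75 to 1.39, with a median of 0.06.

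Among 29 PPAR partners, 1 was higher, 0 lower and 28 did not pass (median -0.10). Zfp423, a zinc finger factor of the fat cell lineage that acts upstream of Pparg, had means of 6.63 ± 0.60 in YFP-positive cells, against 4.78 ± 0.16 in YFP-negative cells (n = 3 arrays each, SD; 3.59-fold, limma adjusted p = 0.0277), a call kept only without YFP-positive replicate 3 when single arrays were left out (limma adjusted p up to 0.104) and lost with the replicate number as a block (0.0682). Cebpd, a factor that comes before Pparg in fat cell formation, differed by 1.46 ± 0.34 and Nrip1, a corepressor of nuclear receptors, by -0.84 ± 0.20, and neither passed (limma adjusted p = 0.0765 and 0.0813). The other PPAR genes, named after their values were seen, did not pass, with Ppara differing by -0.19 (95% interval -0.46 to 0.09) and Ppard by 0.17 (-0.37 to 0.72).

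Among 29 further PPAR targets, 2 were higher, 1 lower and 26 did not pass (median 0.07). Abca1, a cholesterol exporter, was 4.09-fold higher (2.03 ± 0.33, limma adjusted p = 0.0253) with the call kept only without YFP-positive replicate 3 when single arrays were left out (limma adjusted p up to 0.0993). Txnip, a regulator of glucose uptake and redox state, had means of 11.4 ± 0.25 in YFP-positive cells, against 9.81 ± 0.30 in YFP-negative cells (n = 3 arrays each, SD; 3.06-fold, limma adjusted p = 0.0122, and 0.0559 without YFP-negative replicate 2). Acadm, a dehydrogenase of mitochondrial fatty acid oxidation, was 1.93-fold lower (-0.95 ± 0.13, limma adjusted p = 0.0156; kept only without YFP-positive replicate 3 when single arrays were left out, up to 0.0648). Cpt1a, which starts the import of fatty acids into mitochondria, differed by -1.27 ± 0.35 and did not pass (limma adjusted p = 0.119; 0.0357 without YFP-positive replicate 3).

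**Figure D4:**
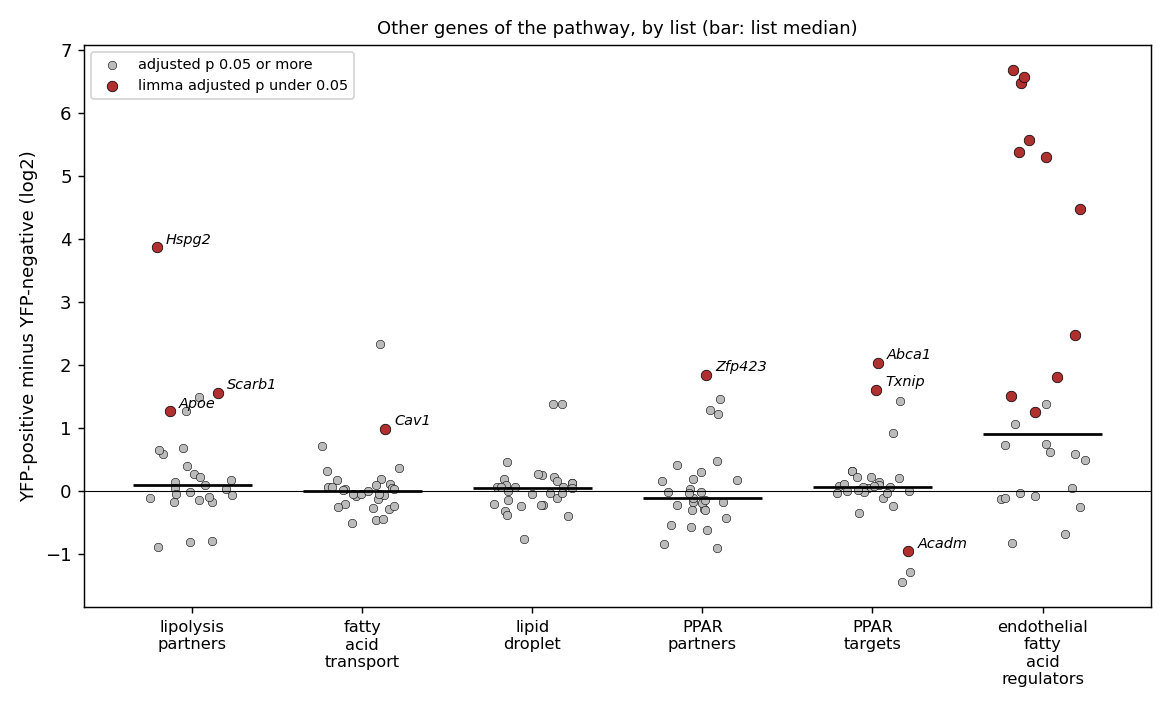
Difference between YFP-positive and YFP-negative arrays (log2) for each measured gene of the 6 pathway lists, without the 9 genes themselves. Red points passed limma's test, grey points did not, and bars are list medians; the medians of the first 5 lists lie between -0.10 and 0.11 and that of the regulators at 0.91.

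Of 26 genes known as regulators of fatty acid transport in endothelium, or as receptors and factors acting in it, 11 were higher, 0 lower and 15 did not pass. This was 42.3% called with a median of 0.91, beside 4.84% and -0.01 over all genes. Of the endothelial markers, 88.5% were called. The list of regulators was written with earlier results of these data known, so nothing is read from its share. Kdr, Flt1, Tek and Tie1, all called higher, are the 4 of the 26 that are also on the list of endothelial markers. Epas1 was 89.2-fold higher (6.48 ± 0.14, limma adjusted p = 4.3e-05), Kdr 102-fold (6.67 ± 0.16, limma adjusted p = 4.31e-05) and Ldb2 95.2-fold (6.57 ± 0.33). Aplnr, the receptor of the peptide apelin, had means of 9.03 ± 0.61 in YFP-positive cells, against 3.46 ± 0.19 in YFP-negative cells (n = 3 arrays each, SD; 47.3-fold, limma adjusted p = 0.000618), and Tek and Flt1, receptors of angiopoietins and of vascular endothelial growth factors, were 41.8-fold and 39.5-fold higher. The YFP-negative means of Epas1, Kdr, Ldb2 and Flt1 were 3.26, 3.63, 3.74 and 3.42. Like that of Aplnr they lay under the gene median, which limits the size of these folds. Meox1, a homeobox factor, differed by 0.50 ± 0.11 and Foxo3 by -0.82 ± 0.19, and neither passed (limma adjusted p = 0.0611 and 0.0756). Meox2 and Tcf15, a pair of factors known in mouse heart endothelium to drive Cd36 and Lpl, were under the gene median on all 6 arrays. Meox2 had means of 3.11 ± 0.04 in YFP-positive cells, against 3.13 ± 0.06 in YFP-negative cells, and Tcf15 of 3.52 ± 0.13 against 3.64 ± 0.10 (SD, n = 3 each). This pair was named after its values were seen.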

How the data were processed

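RNA input was 500 pg, amplified by the Ovation Pico kit and biotin-labelled per the labels' protocols. The authors deposited log2 expression values for 41345 probes, 1 column per array; that the scale is log2 was read from the values (1.53 to 13.7). The submitters' processing notes name Partek; how background was corrected and arrays were normalized is not given in the sources used here. Precision is limited by the number of arrays.

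Of the probes, 23521 had 1 gene symbol, 1814 had several and were left out, and 16010 were unnamed here. Each gene took its probe with the highest mean, giving 22180 genes. The test was limma (version 3.58.1, run in R version 4.3.3: lmFit, eBayes, population as the only term, two-sided, Benjamini-Hochberg adjustment over all genes, threshold 0.05). It was also run on simulated data with independent noise for each gene, which leaves shifts shared by many genes on an array untested. Differences are YFP-positive minus YFP-negative, with moderated SE.

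The 9 genes and the lists were chosen with earlier results of these data known. From each pathway list the text names up to 6 called genes of smallest p and 2 others of smallest p, and the 3 genes nearest to each of the 9. Lists share some members. Genes with no single-symbol probe were not analysed here. Of the 9 genes, 3 matched a RefSeq promoter window. Markers of stroma (0 of 13 passed), of red cells and platelets (0 of 8) and of lymphocytes (3 of 13, lower) were also read; at an unadjusted p under 0.05 there were 6, 1 and 5.

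The alternatives were the mean of probes, quantile normalization, a filter on low values, an unmoderated model, an intensity trend, a replicate block and leaving out each array.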

Additional observations from a re-analysis of the deposited data

How the results depend on the processing

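The 9 genes kept their direction under every alternative run. Their median difference of 5.11 was 4.70 to 5.55 when 1 array was left out, 5.11 with the mean of probes and with the replicate block, and 5.16 after quantile normalization; Lpl moved to 3.58 with the mean of its probes. With the replicate number as a block, 580 genes were called instead of 1074, with 1 of the lipolysis partners (Apoe and Scarb1 lost, limma adjusted p = 0.0630 and 0.0815), 0 of fatty acid transport (Cav1 lost, 0.0655), 2 of the PPAR targets (Acadm lost, 0.0519), 1 PPAR partner (Hdac3 in place of Zfp423, 0.0362 and 0.0682) and 10 endothelial regulators (Hif1a lost, 0.0554); same-numbered arrays correlated in their deviations from group means at 0.0985, 0.0806 and 0.167, not all over 0.1, so the numbers were not taken as pairs, although every array correlated best with its own number, a hint from the data and not from the design. With the unmoderated model 180 genes were called, with 1 lipolysis partner, 0 fatty acid transport genes, 0 PPAR partners, 0 PPAR targets and 5 endothelial regulators. With the filter on low values, 1210 of 11090 genes were called, with 4 lipolysis partners, 0 fatty acid transport genes (Cav1 was not tested there) and 2 PPAR partners. Quantile normalization gave 2 lipolysis partners, and the intensity trend 2 PPAR targets. Of the 9 genes, 8 passed with the block, beside 580 of all 22180 genes. With 1 array left out 8 to 9 passed, beside 430 to 1185 of all genes, Fabp5 being the one lost. With the unmoderated model 5 passed, beside 180 of all genes, and Lpl, Fabp4, Fabp5 and Angptl4 were lost. The 9 were chosen on this contrast, so nothing is read from their counts. Leaving out 1 array gave 430 (without YFP-negative replicate 2) to 1185 (without YFP-positive replicate 3) called genes, 1 to 2 lipolysis partners, 0 to 1 fatty acid transport genes, 0 to 1 lipid droplet genes, 0 to 2 PPAR partners, 0 to 4 PPAR targets and 7 (without YFP-negative replicate 1) to 12 endothelial regulators. Fits with fewer arrays have fewer degrees of freedom; other causes were not tested. Of the alternative values of named pathway genes, 260 kept their side of the threshold, 44 lost it and 5 gained it, and 0 changed direction. No detection calls were used, so levels under the gene median, and folds against them, are not resolved.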
